A study of Arabidopsis thaliana with 6 samples.

Results

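Of 1954 LFY-bound regions called in p35S:LFY seedlings, 324 (16.6%, exact binomial 95% interval 15.0 to 18.3%) were distal. A region was counted as distal when its midpoint lay in no annotated gene of any type and more than 1000 bp from the nearest end of every protein-coding gene. Position alone chose these regions, and neither binding rank nor the difference between genotypes was used. ChIP-Seq was performed on whole 15-day-old A. thaliana seedlings grown under long days, with 2 biological replicates for each of 3 genotypes. p35S:LFY (line CA26-15) expresses the LFY cDNA from the 35S promoter, p35S:LFYTERE (line CA29-17) expresses from the same promoter an LFY cDNA with the T75E and R112E substitutions in the oligomerization domain, and non-transgenic Col-0 is the background control. Each transgenic genotype is a single line, the 35S promoter is active in most tissues and not only where LFY normally acts, and the antibody was raised against the C-terminal part of LFY, which both transgenes encode.

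LEAFY (LFY) is a plant transcription factor that gives young meristems a floral fate, by activating floral homeotic genes such as AP1 and AG and by repressing the inflorescence identity gene TFL1. It contacts DNA through its C-terminal domain, whereas its N-terminal Sterile Alpha Motif (SAM) domain lets LFY molecules associate with each other. In the compact genome of A. thaliana most known regulatory DNA lies close to or within genes, but distant elements are known for several developmental genes. For each bound region the deposited lists hold a rank, in which 1 is the best, and the coverage fold reduction (CFR), which sets the coverage in p35S:LFY over that in p35S:LFYTERE. A CFR of 10 therefore stands for 10 times less coverage with the SAM mutant protein. Both replicates were fused into this one value, so a spread between replicates cannot be given for any region. The 95% intervals below cover only the number of regions behind a median or a share, and no test was made across regions because regions are not replicates. Read numbers per library were not used here.

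Most distal regions lay only a little beyond the 1 kb limit. The distance from midpoint to the nearest protein-coding gene had a median of 1.71 kb, with quartiles at 1.33 and 2.43 kb and a maximum of 11.5 kb. In the class from 1 to 2 kb there were 200 regions (61.7%, 56.2 to 67.0%), in the class from 2 to 3 kb there were 71 (21.9%, 17.5 to 26.8%), and beyond 3 kb there were 53 (16.4%, 12.5 to 20.8%). The farther of the flanking genes was at a median of 3.69 kb, and for 124 of the 324 regions both flanking genes were more than 2 kb away. For 6 regions the midpoint met the rule although an edge touched an annotated gene of some type.

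Distal binding was about as dense as binding over the whole genome, and sparser than binding close to genes. The positions that meet the distal rule make up 16.8% of the 5 chromosomes (20.1 Mb), so distal regions occurred at 16.1 per Mb, against 16.4 per Mb over all bases. Intergenic bases within 1 kb of a gene carried 30.9 regions per Mb, and bases inside protein-coding genes carried 13.2 per Mb. Within the distal space the density was lower at greater distance, from 26.9 per Mb at 1 to 2 kb through 22.1 at 2 to 3 kb to 5.62 beyond 3 kb. The space beyond 3 kb includes the gene-poor tracts around the centromeres, and how well reads can be placed there was not examined. Chromosome 1 held 110 distal regions (19.8% of its regions), chromosome 2 held 55 (17.7%), chromosome 3 held 48 (13.6%), chromosome 4 held 39 (13.7%) and chromosome 5 held 72 (15.96%). The share of bases meeting the rule ranged from 15.8 to 18.7% among the chromosomes, lowest on chromosome 5 and highest on chromosome 2.

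Distal regions had a higher CFR than regions elsewhere. Their median CFR was 9.82 (9.08 to 11.1), against 7.40 (7.15 to 7.68) for all 1954 regions and 7.14 (6.89 to 7.41) for the regions that are not distal. The median was 7.43 (6.89 to 8.02) for intergenic regions within 1 kb of a gene and 7.01 (6.61 to 7.28) for regions inside protein-coding genes. The interval of the distal regions did not overlap any of these. It overlapped that of the 77 regions lying only in a gene of another type, whose median was 7.37 (6.42 to 9.19). Single distal regions nevertheless ranged from 1.87 to a region whose CFR is listed as infinite because no p35S:LFYTERE coverage was left, with quartiles at 5.75 and 18.0. Of the 324 distal regions, 200 (61.7%) lay above the median of all regions.

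**Figure D1:**
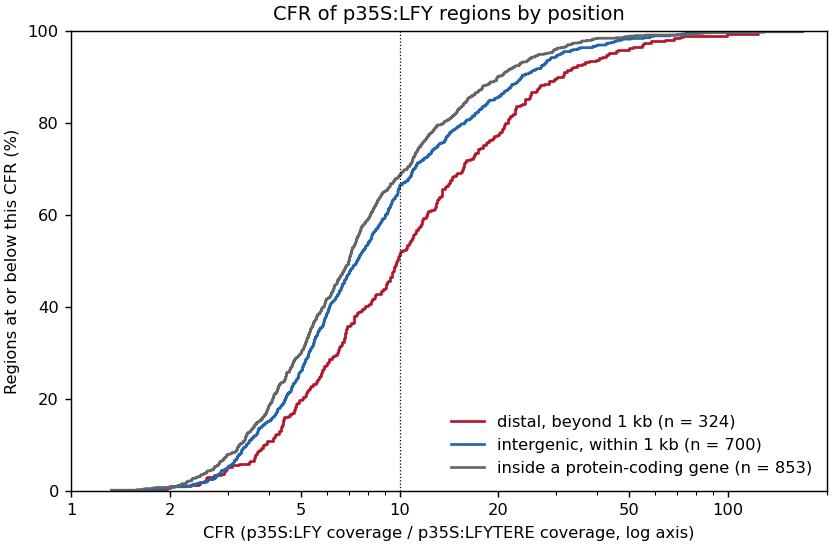
Cumulative distribution of CFR (x axis, ratio of p35S:LFY to p35S:LFYTERE coverage, log axis) for 324 distal regions, 700 intergenic regions within 1 kb of a gene and 853 regions inside protein-coding genes, with the percentage of regions at or below each CFR on the y axis. The distal curve runs below the others over most of the range, so that 48.8% of distal regions lie to the right of the dotted line at a CFR of 10.

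The share of distal regions was the larger one at CFR thresholds of 10, 20 and 50 and about the same at 3. A CFR above 10 was found in 158 distal regions (48.8%, 43.2 to 54.4%), against a background of 35.3% of all regions and 32.6% (30.4 to 35.0%) of those that are not distal. Above 20 there were 73 distal regions (22.5%, 18.1 to 27.5%) against 13.5% of all regions, and above 50 there were 12 (3.70%, 1.93 to 6.38%) against 1.74%. Among the regions that are not distal the shares were 11.7% (10.1 to 13.3%) above 20 and 1.35% (0.848 to 2.04%) above 50, the latter with an interval that overlaps the distal one. Above 3 there were 307 distal regions (94.8%) against 93.6%. Distal regions thus made up 12 of the 34 regions with a CFR above 50. They were 53 of the 195 regions in the top decile of CFR (27.2%, 21.1 to 34.0%) and 19 of the 196 in the bottom decile (9.69%, 5.94 to 14.7%), beside their 16.6% share of the list.

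Among intergenic regions the share with a CFR above 10 was smallest next to genes and similar in all distance bins beyond 1 kb. The share was 29.5% (24.6 to 34.8%, 325 regions) within 0.25 kb of a gene, 36.3% (29.0 to 44.1%, 168 regions) from 0.25 to 0.5 kb and 39.1% (32.4 to 46.1%, 207 regions) from 0.5 to 1 kb. It was 52.2% (42.6 to 61.7%, 113 regions) from 1 to 1.5 kb, 48.3% (37.4 to 59.2%, 87 regions) from 1.5 to 2 kb, 45.1% (33.2 to 57.3%, 71 regions) from 2 to 3 kb and 47.2% (33.3 to 61.4%, 53 regions) beyond 3 kb. The intervals of neighbouring distance bins overlapped throughout, whereas the first bin lay below both bins between 1 and 2 kb. Inside protein-coding genes the share was 31.4% (28.3 to 34.7%).

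**Figure D2:**
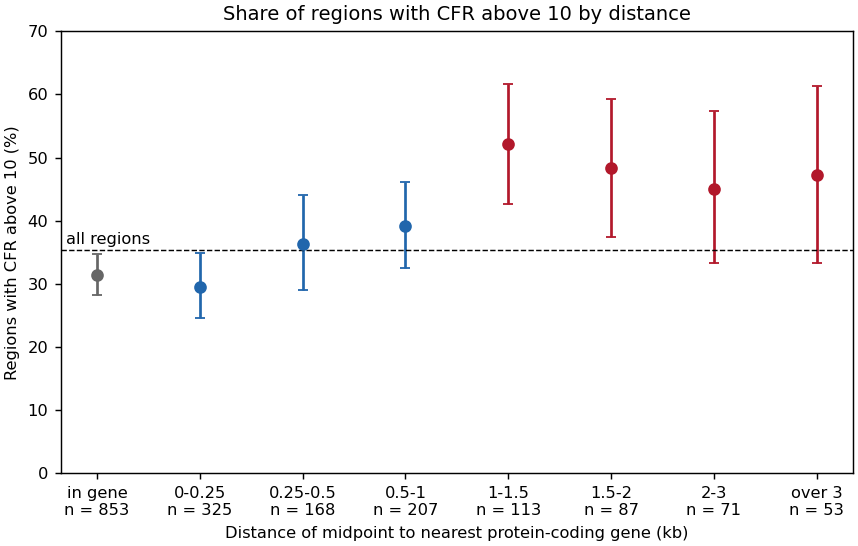
Percentage of regions with a CFR above 10 (y axis) by distance of the midpoint to the nearest protein-coding gene (x axis, kb), with exact binomial 95% intervals as bars and the number of regions under each bin. Grey marks regions in protein-coding genes, blue intergenic regions within 1 kb and red distal regions, and the dashed line is the 35.3% of all regions. The 4 distal bins lie between 45.1 and 52.2%.

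Within the distal regions CFR showed little relation to distance. The median CFR was 10.01 (9.04 to 12.1) at 1 to 2 kb, 9.33 (6.66 to 12.03) at 2 to 3 kb and 9.81 (7.80 to 12.1) beyond 3 kb, with overlapping intervals. Spearman's rho between CFR and distance was -0.04 over the 324 distal regions and 0.16 over all 1024 intergenic regions, given as descriptions, since regions of one gap share a neighbourhood and all share the same libraries. The very high values were thinner beyond 3 kb, where 7 of 53 regions (13.2%, 5.48 to 25.3%) exceeded a CFR of 20 against 50 of 200 (25%, 19.2 to 31.6%) at 1 to 2 kb. These intervals overlap.

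**Figure D3:**
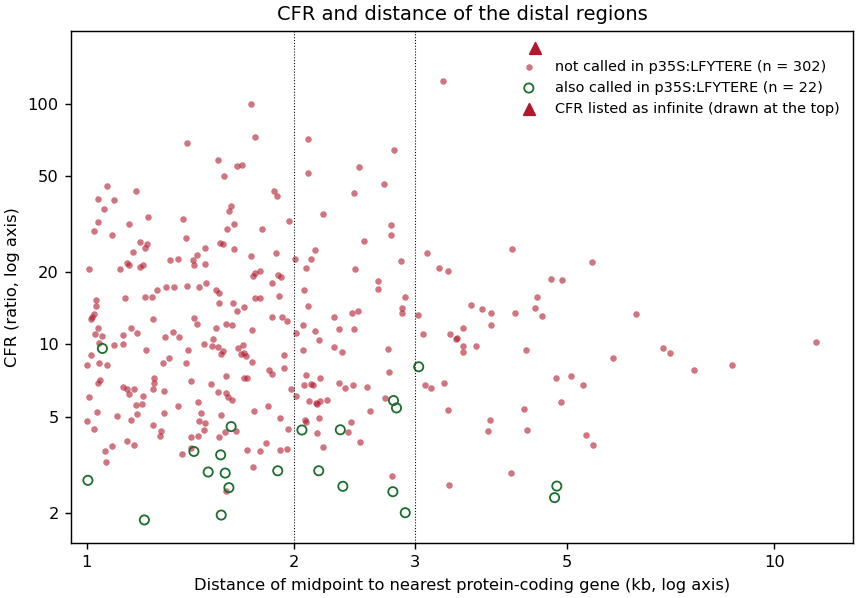
CFR (y axis, log axis) against distance to the nearest protein-coding gene (x axis, kb, log axis) for the 324 distal regions, with dotted lines at 2 and 3 kb. Green rings are the 22 regions that overlap a p35S:LFYTERE region, which all lie below a CFR of 10, red points are the other 302, and the triangle at the top is the region listed with an infinite CFR.

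Distal regions were ordinary in rank and, like intergenic regions within 1 kb of a gene, narrower than regions inside protein-coding genes. Their median rank was 967 (839 to 1118) in a list of 1954 whose middle rank is 977.5. There were 17 distal regions among the best 100 and 32 (9.88% of the distal regions) among the best 200. By distance class the median rank was 991 (842 to 1139), 740 (564 to 1044) and 1318 (827 to 1441) from the nearest class to the farthest, again with overlapping intervals. Their median width was 336 bp (323 to 349) against 365 bp (360 to 372) for all regions, 345.5 bp (336 to 353) for intergenic regions within 1 kb and 396 bp (387 to 403) inside protein-coding genes. The widths of distal regions and of intergenic regions within 1 kb had overlapping intervals. Rank and width went together (rho of -0.65 over the 324 regions, the better ranks being wider), whereas CFR was nearly unrelated to rank (-0.01) and weakly related to width (-0.11).

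The distal median was the higher one at all ranks and widths, although the intervals were apart in few classes. When the whole list was divided by rank into 5 classes of equal size, the distal median exceeded the median of the other regions in each class. It was 11.0 (8.39 to 14.6, 59 regions) against 8.09 (7.48 to 9.03) in the best class, and 9.94 (8.75 to 13.5, 70 regions) against 7.03 (6.27 to 7.44) in the last. The intervals were apart only in this last class. In the class of ranks 1173 to 1563 the medians were nearest to each other, at 7.28 (6.68 to 10.002) and 6.62. Divided by width, the distal median was also the higher one in all 5 classes, from 12.3 (9.61 to 14.9) against 7.10 (6.34 to 7.88) in the second narrowest class to 7.28 (6.21 to 10.002) against 6.63 (6.05 to 7.16) in the second widest. The intervals by width were apart only in the second narrowest class.

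**Figure D4:**
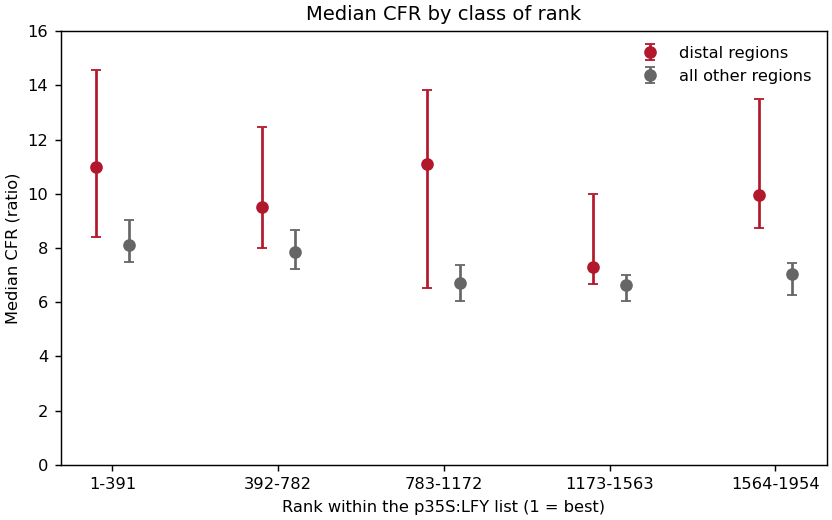
Median CFR (y axis, ratio) in 5 classes of the p35S:LFY list of equal size by rank (x axis, 1 is the best), for distal regions in red and all other regions in grey, with binomial 95% intervals of the median as bars. The distal median is the higher one in every class, from 7.28 against 6.62 at ranks 1173 to 1563 to 11.1 against 6.71 at ranks 783 to 1172.

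Of the 10 highest CFR values, 8 were at regions of middling or poor rank, although CFR was nearly unrelated to rank over the 324 distal regions. A region between ZW2 and ZF14 (chr1:21648366-21648638, TAIR10 as are all coordinates here, rank 1783), 4.49 kb from ZF14, is the one listed with an infinite CFR. A region 3.29 kb from bZIP2, which encodes a basic leucine zipper transcription factor, and 5.24 kb from the MAP kinase gene MPK7 had a CFR of 124 (chr2:7902386-7902685, rank 1326). The next was a region 1.74 kb from CYP707A1, a gene for an abscisic acid catabolic enzyme, with a CFR of 99.5 (chr4:10519378-10519667, rank 1908). With so little p35S:LFYTERE coverage, these ratios rest on a small denominator whose error is not given. The other 7 of the highest 10 had values from 55.2 to 73.0. They include regions flanked by ESE3 (CFR 68.7, 1.40 kb) and CRF3 (55.2, 11.1 kb from CRF3 and 1.65 kb from UBC10), both genes for AP2/ERF transcription factors, RGL1 (71.3, 2.10 kb), a gibberellin signalling repressor of the DELLA family, and MYB37, also named RAX1 (55.7, 1.68 kb), which promotes axillary meristem formation. The MYB37 region (chr5:7699473-7699938) had rank 129 and the region between AT4G34760 and AT4G34770 (chr4:16584678-16584990, CFR 73.0) rank 369, while the other 8 ranked between 969 and 1908.

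The share of distal regions also called with the mutant protein was near that of all regions, and the shared regions had low CFR in both. Overlap of at least 1 bp with a region of the p35S:LFYTERE list was found for 22 distal regions (6.79%, 4.30 to 10.1%), against 8.85% of all regions and 9.26% (7.90 to 10.8%) of those that are not distal. The intervals of distal and other regions overlap. The shares were 5.50% (11 regions), 11.3% (8 regions) and 5.66% (3 regions) at 1 to 2, 2 to 3 and over 3 kb. Overlap and CFR are read from the same p35S:LFYTERE coverage, so they are not independent. The 22 regions had a median CFR of 2.97 (2.54 to 4.42). It was 2.99 (2.86 to 3.20) for all 173 shared regions and 3.02 (2.85 to 3.21) for the shared regions that are not distal. The 302 distal regions without overlap had a median of 10.6 (9.52 to 11.7), and the regions without overlap that are not distal had 7.64 (7.39 to 8.11). The difference between distal and other regions was therefore present without the shared regions too. Seen from the other list, 20 of the 176 p35S:LFYTERE regions (11.4%, 7.08 to 17.0%) were distal by the same rule, and each of the 20 overlapped a p35S:LFY region. How many of all 176 overlapped one is not given here, so this count is not read as particular to distal regions. The CFR of the 20 distal ones ran from 1.83 to 4.83, so that none of these had more coverage in p35S:LFYTERE than in p35S:LFY.

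The lowest distal values were close to 2. The 3 regions with a CFR of 2 or less lay between AT4G39040 and AT4G39050 (1.87), between AT1G70000 and AT1G70020 (1.95), and 2.91 kb from BRI1, which encodes the brassinosteroid receptor (2.00, chr4:18321398-18321705, rank 1074). Of the 10 lowest, 8 overlapped a p35S:LFYTERE region. The exceptions were a region 2.54 kb from LBD37 (2.46, rank 1860) and one 3.37 kb from MP, the auxin response factor gene MONOPTEROS (2.59, chr1:6883154-6883451, rank 1842), both of poor rank. Among the shared regions of best rank were those 1.59 kb from MSS3 (rank 61, CFR 2.92), 2.79 kb from TSD2 (rank 75, CFR 2.44) and 2.06 kb from AT5G20840, in the gap beside the sucrose synthase gene SUS1 (rank 84, CFR 4.41). Of the others, a region 4.79 kb from EDA12 in the gap beside BLH1, a BELL homeodomain gene, had a CFR of 2.31, a region 2.34 kb from AT4G36860 in the gap beside BLH2 had 4.42, and a region 1.43 kb from BOP1, a gene for leaf and floral organ patterning, had 3.59. Further examples were in the gaps of the proline biosynthesis gene P5CS1 (5.45) and of the root hair regulator gene RSL4 together with the zinc finger gene STZ (3.48). Others were in the gaps of OBP4 of the DOF family (2.57), HAM4 of the GRAS family (2.72) and NAC080 (4.56). Another gene lay nearer than P5CS1, OBP4 and NAC080 to their regions. The largest CFR among the 22 was 9.62, in the gap of CRF2 and the nearer gene AT4G23760, where the called regions shared only 94 bp.

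The best ranked distal region of the list was the third of all 1954. It lay 2.15 kb from AT1G23070 and 2.22 kb from PIN7, a gene for an auxin efflux carrier (chr1:8177682-8178256), with a CFR of 11.4. The second, at rank 9, lay between AT1G30350 and ERD4 (chr1:10713529-10714120, CFR 9.64), and the third, at rank 30, between the DOF transcription factor gene OBP2 and AT1G07650 (chr1:2357564-2358227, CFR 25.1). A region of 696 bp between GRF2, a growth-regulating factor gene, and ANT, the AINTEGUMENTA gene that promotes floral organ growth, was 1.15 kb from ANT (chr4:17738015-17738710, rank 46, CFR 21.4). The remaining 6 of the best 10 flanked FAD6 and SIP3, BGAL5, the ethylene response factor gene ERF15, AT1G13360, AT4G30250 and the B-box gene BBX31. The CFR of the best 10 ranged from 7.46 at ERF15 to 26.7 at AT4G30250.

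The 10 regions farthest from any protein-coding gene had CFR values from 3.83 to 22.1. All but the region in the gap of HA1 lay nearer to a gene of another type. The nearest were 0.16 kb from MIR396b in the gap of SOS2 and 0.85 kb from a long non-coding RNA gene beside SUC1. A region in the gap of BOP2 lay 1.01 kb from AT2G09255. The region most remote from protein-coding genes lay 11.5 kb from AT3G29785 and 23.9 kb from MES11, in the widest of the gaps that hold a distal region, 35.4 kb (chr3:11624041-11624360, rank 862, CFR 10.2). A pseudogene lay 2.98 kb from it. A pair beside the sucrose transporter gene SUC1 lay 8.69 and 7.65 kb from the nearest protein-coding gene (CFR 8.21 and 7.80), and a pair beside the nitrate reductase gene NIA2 lay 5.83 and 5.45 kb from it (CFR 8.75 and 3.83). Other remote regions were in the gaps of the salt tolerance kinase gene SOS2 (6.89 kb from AT5G35405, CFR 9.70), of GPAT6 and the auxin influx carrier gene AUX1 (6.28 kb from GPAT6 and 10.8 kb from AUX1, CFR 13.4), of AT1G29640 and AT1G29660 (7.05 kb, CFR 9.21) and of the plasma membrane proton pump gene HA1 (5.32 kb, CFR 4.21). The highest value among the 10 was 22.1, at rank 180, in the gap of BOP2, a paralogue of BOP1 (chr2:17246197-17246594, 5.42 kb from AT2G41380 and 5.79 kb from BOP2).

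The 324 regions occupied 283 gaps between protein-coding genes, with a median gap of 5.33 kb (2.08 to 35.4 kb) and 561 different flanking genes. A single distal region was found in 246 gaps, 2 in 35 gaps, 3 in the gap of AT3G25700 and BHLH32, and 5 in the gap of PFD3 and the transcription factor gene WRKY48. In total 78 regions shared a gap with another distal region, and 67 had another called region of any position within 1 kb. Neighbours in a gap were alike in CFR in some gaps and differed in others. In the 37 shared gaps, the highest CFR was a median 2.15 times the lowest (1.02 to 8.73 times) and more than 2 times the lowest in 19. In 21 of the 37 gaps some regions were above a CFR of 10 and others not, beside a share above 10 of 48.8% over all distal regions. Regions from different gaps were not compared in this way. The values therefore do not show whether neighbours are more or less alike than unrelated regions.

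Both kinds of gap are shown by examples, some of them picked after their values were seen. At TIR1, the auxin receptor gene, regions 2.48 and 2.87 kb away had nearly the same CFR of 13.7 and 13.4 (chr3:23278941-23279282 and chr3:23279351-23279656). At TFL1 adjacent regions 2.72 and 2.40 kb away had 22.5 and 31.7. In the gap of KAN, a gene of organ polarity, the pair 5.30 kb apart had 42.5 and 4.87. The region with 42.5 was 2.44 kb from KAN, and the other was 7.75 kb from KAN and nearer to the gene on the other side. At EMS1, a receptor kinase gene of anther development, a pair only 0.35 kb apart had 49.9 and 8.01. Beside EDA12 the shared region of CFR 2.31 had a neighbour of 11.7 at a distance of 1.27 kb, which was not called in p35S:LFYTERE. In the gap of WRKY48 the 5 values were 9.51, 5.84, 8.07, 14.6 and 6.51 along the chromosome, and the regions with 5.84 and 8.07 overlapped the same p35S:LFYTERE region.

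**Figure D5:**
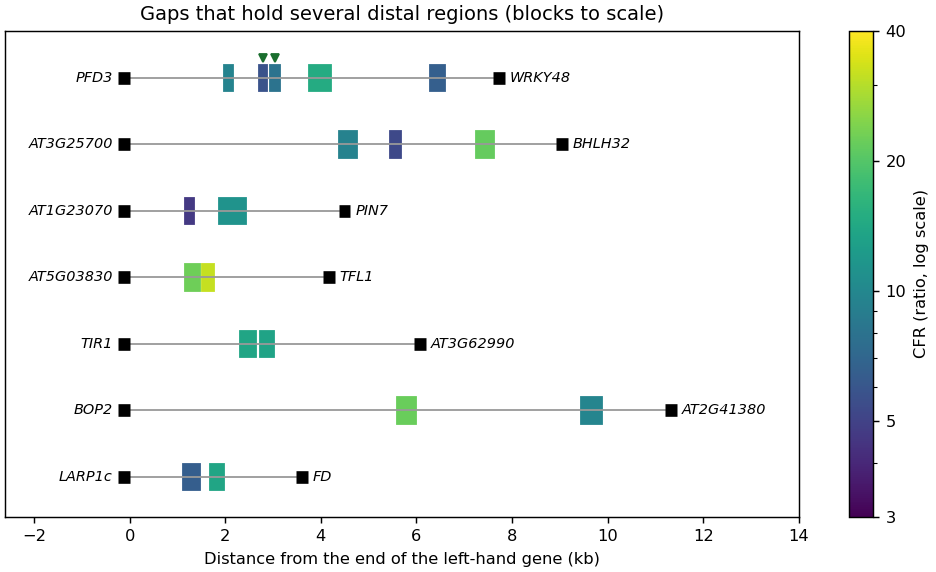
Map of 7 gaps between protein-coding genes that hold several distal regions, drawn to scale from the end of the left-hand gene (x axis, kb). Black squares mark the ends of the flanking genes, blocks are distal regions coloured by CFR (log colour scale), and green triangles mark overlap with a p35S:LFYTERE region, which occurs here only in the gap of PFD3 and WRKY48.

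Flanking genes were read against lists of genes by function. These lists were drawn up with earlier results of the same data known, so their counts describe the regions and are not independent evidence. Of 108 genes in 8 lists, 24 flanked a distal region on either side, and 15 were the nearest gene to one. Over all 27444 protein-coding genes, 561 (2.04%) flanked a distal region, or 5.21% of the 10761 that border a gap longer than 2 kb, where a distal region can lie. Beyond this limit no allowance was made for gap length, here or for the lists and families below. Auxin genes stood highest, with 10 of 14 flanking a distal region and all 14 bordering such a gap. Efflux carrier genes had regions at PIN4 (CFR 5.09 at 2.06 kb) and PIN7 (11.4 and 4.63). The biosynthesis genes had regions at YUC4 (9.91 at 2.40 kb) and YUC6 (17.3 at 7.15 kb). Regions at the kinase gene PID, which directs efflux carriers, had 4.34, those at the response factor genes ETT and MP had 4.76, and 2.59 and 2.91, and TIR1 and AUX1 are described above. For 6 of these 10 genes another gene lay nearer to the region.

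Gibberellin genes followed with 6 of 18 (37.5% of the 16 bordering a long gap). They cover biosynthesis, inactivation, perception and response, namely GA20OX1 (CFR 22.2 at 2.87 kb), GA3OX1 (15.9 at 1.90 kb), GA3OX2 (9.04 at 1.02 kb), the catabolic gene GA2OX2 (7.26 at 16.3 kb, with nMAT1 nearer), the receptor gene GID1B (12.2 at 2.11 kb and 4.35 at 1.65 kb) and RGL1 (71.3). Of the shoot meristem and organ boundary genes 4 of 15 flanked a distal region. These were STM, the homeobox gene needed to maintain the shoot meristem (14.2 at 4.49 kb), the boundary gene CUC3 (40.4 at 1.04 kb), TFL1 and MYB37. AT5G03830 lay nearer than TFL1 to both regions of their gap. Flowering time genes contributed 3 of 17, with regions at FD, the bZIP partner of florigen (6.43 at 2.19 kb and 13.8 at 1.66 kb), and at the floral repressor genes TEM1 (19.2 at 1.75 kb) and RAP2.7 (2.85 at 4.47 kb). RAD51B lay nearer than RAP2.7 to its region, LARP1c nearer than FD to the region with 6.43, and NPL41 nearer than GID1B to the region with 12.2. Of 19 floral meristem and organ identity genes 1 flanked a distal region, or 6.25% of the 16 bordering a long gap, near the 5.21% of all genes. It was SEP3 (10.9 at 1.13 kb, chr1:8597108-8597394, rank 1462). Of 10 cytokinin genes, 9 pathogen response genes and 6 constitutively expressed reference genes 0 flanked one, and with 7, 4 and 3 of them bordering a gap longer than 2 kb these counts are too small to be set against 5.21%.

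Among families matched by gene symbol or synonym, homeodomain genes (7 of 37 bordering genes, 18.9%), bHLH genes (3 of 15) and genes matched as ERF (4 of 28, 14.3%) stood above the 5.21% of all genes, on few genes each. These counts take a gene on either side. Only 3 homeodomain, 2 bHLH and 3 ERF genes were the nearest gene to a distal region. The matching took numbered names only (such as HB, BHLH or ERF with a number). Members with other names, among them STM, BLH1, ESE3 and CRF3, are therefore not in these counts. The 4 genes counted as ERF were ERF15, ERF38, RAP2.7 and RAV2. The symbols of RAP2.7 and RAV2 are not ERF names, so the ERF share is not one of ERF genes alone. The homeodomain examples ran from HB4 (CFR 3.65) and HB-1 (3.67) through HB53 (7.28) to HB-8, a gene of vascular development (20.5), WOX13 (23.3) and HB-3 (27.6, with the bHLH gene BNQ2 on the other side). The MYB family (8 of 104, 7.69%), NAC family (5 of 62, 8.06%), WRKY family (3 of 51, 5.88%), bZIP family (3 of 27, 11.1%), B-box family (1 of 15, 6.67%) and cytochrome P450 family (7 of 110, 6.36%) were nearer to the 5.21%. The nearest gene to a distal region was a member of these families for 6 MYB, 1 NAC, 3 WRKY, 3 bZIP, 1 B-box and 3 cytochrome P450 genes. MYB examples were MYB28, a regulator of glucosinolate synthesis (15.7 and 14.9, in the gap beside NAC100), MYB96 (14.2), MYB102 (22.6) and PAP1, a regulator of anthocyanin synthesis (8.76 and 5.65). The P450 genes include the brassinosteroid synthesis genes DWF4 (7.24 at 2.19 kb) and CPD (3.78 at 4.63 kb) and the flavonoid gene TT7 (10.4 at 2.43 kb). The AGAMOUS-LIKE family of MADS-box genes had SEP3 alone (1 of 54, 1.85%).

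Although distal regions avoid annotated genes of all types, 47 of the 324 (14.5%) had a gene that is not protein-coding within 1 kb. These were long non-coding RNA genes in 25 cases, pseudogenes in 5 and transcribed pseudogenes in 5 more, other non-coding RNA genes in 4, miscellaneous RNA genes in 3, miRNA genes in 3 and tRNA genes in 2. The miRNA genes were MIR396b, whose product targets growth-regulating factor mRNAs (0.16 kb, CFR 9.70, the region otherwise 6.89 kb from a protein-coding gene), MIR394a, known for a role in the shoot meristem (0.43 kb, CFR 9.82), and MIR5664 (0.70 kb, CFR 33.8). A region 3.53 kb from the nearest protein-coding gene was 0.28 kb from TAS3, the precursor of small RNAs that target ETT and related auxin response factor mRNAs (chr3:5862456-5862973, rank 183, CFR 9.81). Counted to the nearest gene of any type, the median distance of the 324 regions was 1.54 kb. Names given here outside the lists were picked for the type of gene.

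The widest distal regions were those beside HB-1 (747 bp, CFR 3.67), CAK4 (724 bp, CFR 9.10) and ANT (696 bp, CFR 21.4). The narrowest were beside PFD3 and WRKY48 (159 bp, CFR 5.84), UVH3 (168 bp, CFR 3.62) and PIN7 (176 bp, CFR 4.63, a second region in the gap of the best ranked one). At the limit of the rule, the members just inside lay 1000.5 bp from AT1G80400 (CFR 8.24), 1001 bp from ATK3 (4.80) and 1004.5 bp from HAM4 (2.72). IAA15, on the other side of the first, was 1406.5 bp away. Just outside, a region in the gap of KRP2 and AT3G50640 lay 996.5 bp from the nearer gene (11.0). A region in the gap of TBL38 and AT1G29060 lay 996.5 bp from AT1G29060 (14.8). One in the gap of WRKY3 and AT2G03350 lay 994.5 bp from the nearer gene (6.65).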

How the data were processed

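ChIP-Seq covered 3 genotypes (p35S:LFY, p35S:LFYTERE, Col-0) with 2 replicates each. Reads were mapped by the authors to TAIR10 (build in the submitters' processing notes), who also removed duplicates and called peaks with SHORE, and kept those passing in all 4 comparisons of replicates with Col-0 controls. The rank in the deposited lists is a score without unit. The authors' CFR is a linear ratio of coverages, scaled between replicates over shared peaks and between genotypes over Col-0 background peaks. The paper states a larger share of regions above a CFR of 10 than the 35.3% in the deposited values, and the reason was not found. Lists hold 1 value per region, no read counts and no replicate values, so precision per region is unknown.

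Genes came from a RefSeq TAIR10.1 table without strand, exons or sequence (27444 protein-coding and other genes, no transposable element class), used for names and distances only. Printed coordinates are TAIR10 from the lists, counted from 1. As a position check, 56.3% of all midpoints lay outside protein-coding genes, against 49.3 and 51.9% after shifts of 500 bp in either direction. After a shift of 100 bp in either direction it was 55.5 and 56.9%, so the check cannot detect offsets that small. The planned motif counts need a genome and were not run.

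Distance was measured from the midpoint. Medians have binomial order-statistic 95% intervals and shares exact binomial ones (Clopper-Pearson). Regions named are the 10 of best rank, highest CFR, lowest CFR and greatest distance, the 15 of best rank overlapping p35S:LFYTERE, the 3 widest and narrowest, the 3 on each side of the limit, and those flanked by listed genes, with the exceptions stated and 1 listed gene not reported here. Members and lists were chosen with earlier results of these data known. Alternatives were edge distance, other gene sets, the best 1000 ranks, CFR above 300 left out, other overlap rules, and the nearest gene only. The distance code, tested on simulated data, placed 500 of 500 regions as a direct search did. Python 3.11.15, numpy 2.4.6, pandas 2.3.3, scipy 1.17.1 and matplotlib 3.10.9 were used.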

Additional observations from a re-analysis of the deposited data

How the results depend on the processing

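Of 48 alternative values, 46 stayed within the interval of the reported value or, for counts, within 1.5 times of it. The number of distal regions was 270 with distance from the region's edge, 350 with only protein-coding genes considered and 277 with the 1 kb limit set for genes of every type, against 324. Counted to genes of every type, 31 regions were over 3 kb away, against 53 counted to protein-coding genes, because non-coding genes lie within that distance. Of the listed genes 15 were the nearest gene to a distal region, against 24 that flanked one on either side. The median CFR of the distal regions was between 9.77 and 10.6 and the share above a CFR of 10 between 48.1 and 52.3% under all alternatives tried. These include leaving out the regions shared with p35S:LFYTERE and keeping 1 region per gap, both chosen after seeing the data. The share overlapping p35S:LFYTERE was between 5.86 and 8.98%, highest among the best 1000 regions by rank.

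No paired analysis was possible because the lists hold no value per replicate, and the analysis without each replicate was not run for the same reason. Depth, read placement and chromatin accessibility were not examined, and their part in the higher CFR of distal regions was not tested.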
